A study of Oryza sativa with 6 samples.

Results

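WRKY71 (LOC4328512), WRKY76 (LOC4347069), WRKY62 (LOC4347070) and WRKY24 (LOC4327518) are rice transcription factor genes of the WRKY family that are described here across 6 leaf arrays. They were taken as every probe set with 1 gene whose symbol or synonyms in the reference gene table held one of these names, which gave 4 genes on 5 probe sets, out of 17905 genes on 22436 probe sets with 1 gene. WRKY71 had 2 probe sets, called here the first (the brighter) and the second, and the others had 1 each. WRKY9 and WRKY51 also carried a WRKY name, which made 6 genes on 7 probe sets. All 7 probe sets passed the filter on low signal.

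Nontransgenic rice of the cultivar Zhonghua 11 was compared with Zhonghua 11 carrying an antisense-OsPDCD5 transgene. OsPDCD5 takes its name from programmed cell death and its own transcript level is not used here, which leaves the genotype labels without a check on the targeted gene. Leaves of 2-week-old seedlings grown on half-strength Murashige and Skoog medium were taken before treatment, and after 20 min or 3 h in dishes of the same medium with NaCl at 200 mM. A group was a single array of leaf RNA (10 plants), which made 6 groups. The promoter of the construct and the number of transgenic lines are not given in the sources used here, and no group was moved to dishes without NaCl, so the effect of salt, of the transfer and of time passed cannot be told apart.

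WRKY proteins bind DNA through a domain that holds the amino acids WRKY and a zinc finger, and their usual target is the W-box, a short element common in promoters of defence genes. WRKY62, WRKY71 and WRKY76 belong to the same subgroup (IIa). In rice, WRKY62, also known as XB10 for its binding to the immune receptor XA21, and WRKY76 are known as negative regulators of defence against bacterial blight and blast, and WRKY76 overexpression lowers phytoalexin genes. WRKY71 is known for a role in defence and, with WRKY51, as a repressor of gibberellin signalling in aleurone cells of the seed. WRKY24 is known as a repressor of gibberellin and abscisic acid signalling in aleurone cells. In the order of the reference gene table, WRKY76 and WRKY62 are immediate neighbours on the same chromosome.

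Levels are MAS5 signals, a linear measure of the brightness of a probe set on an array scaled to a common mean, and a level is compared between arrays and not between probe sets. Per array, 32.9% to 37.7% of rice probe sets had a signal below 16. Of the leaf markers, 5 of 5 photosynthesis genes (CAB2R, FBP1, PSAH, RBCS and RCA) passed the filter, and their signals summed to between 130077 and 171982 on nontransgenic arrays and between 160038 and 176128 on antisense arrays. In limma 1 of the 5, FBP1, was called lower at 3 h than before (-0.75 ± 0.15, adjusted p = 0.0413), as were 738 of 28629 tested. It was also called lower at 3 h than at 20 min (-0.70 ± 0.15, adjusted p = 0.0397), as were 4.23% of all tested. Of 6 root markers 2 passed, Lsi1 and PHT1;8, with a summed signal of all 6 of 2468 to 3391 in nontransgenic and 2149 to 2375 in antisense leaves, and Lsi2 was below 16 on every array. In limma PHT1;8 was called lower in antisense leaves (-0.80 ± 0.15, adjusted p = 0.0134), as WRKY62 was and as 10.6% of all tested were. Lsi1 went the other way, at 0.43 ± 0.17, with no call (adjusted p = 0.121). Of 7 markers of dividing cells 1 passed, PCNA, and the 7 summed to 699 to 879 and to 574 to 643. The part of cell composition in the WRKY results was not tested, and in leaf RNA fewer cells of a type and less RNA per cell cannot be told apart.

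WRKY71 was high after 20 min in both genotypes and back near its starting level after 3 h. In nontransgenic leaves the signal of the first probe set was 2276 before treatment, 11176 at 20 min and 3358 at 3 h. In antisense leaves it was 1781, 13284 and 2195. Both 20 min arrays stood above the other 4, with a gap of 1.73 on the log2 scale between the lower of them and the next array. The second probe set gave 52.0, 415 and 105 in nontransgenic leaves and 68.6, 379.7 and 31.3 in antisense leaves. It placed the same 2 arrays on top, but at 3 h it was 2.03-fold above the start in nontransgenic leaves and 2.19-fold below it in antisense leaves, where the first probe set was above the start in both, by 1.48-fold and 1.23-fold.

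WRKY76 had a 20 min peak that stood out in antisense leaves, where the levels before and after it were low. Its signal was 498 before treatment, 658 at 20 min and 383 at 3 h in nontransgenic leaves. The corresponding antisense signals were 76.3, 786 and 46.7. Antisense leaves thus reached the nontransgenic range at 20 min alone. The 20 min signal was 1.32-fold that before treatment in the nontransgenic pair of arrays and 10.3-fold in the antisense pair, and by 3 h it was 1.72-fold and 16.8-fold below the 20 min value.

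WRKY62, the neighbour of WRKY76, had no peak of that size and was lower in antisense leaves at every stage. Its nontransgenic signal was 168 before treatment, 216 at 20 min and 232 at 3 h. In antisense leaves it was 51.8, 71.0 and 51.8. The ratio of nontransgenic to antisense signal was 3.25 before treatment, 3.05 at 20 min and 4.48 at 3 h. After 16 was added to each signal, 4.46%, 4.30% and 2.60% of probe sets past the filter were at least as far lower in antisense leaves.

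WRKY24 peaked at 20 min in both genotypes, and the antisense peak was the higher. Signals of 449 before treatment, 1305 at 20 min and 789 at 3 h were measured in nontransgenic leaves. Antisense leaves gave 272, 3419 and 271. The antisense array at 20 min stood above all others, and the antisense arrays before and after it were the lowest. The 20 min signal was 2.90-fold that before treatment in the nontransgenic and 12.6-fold in the antisense pair.

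**Figure D1:**
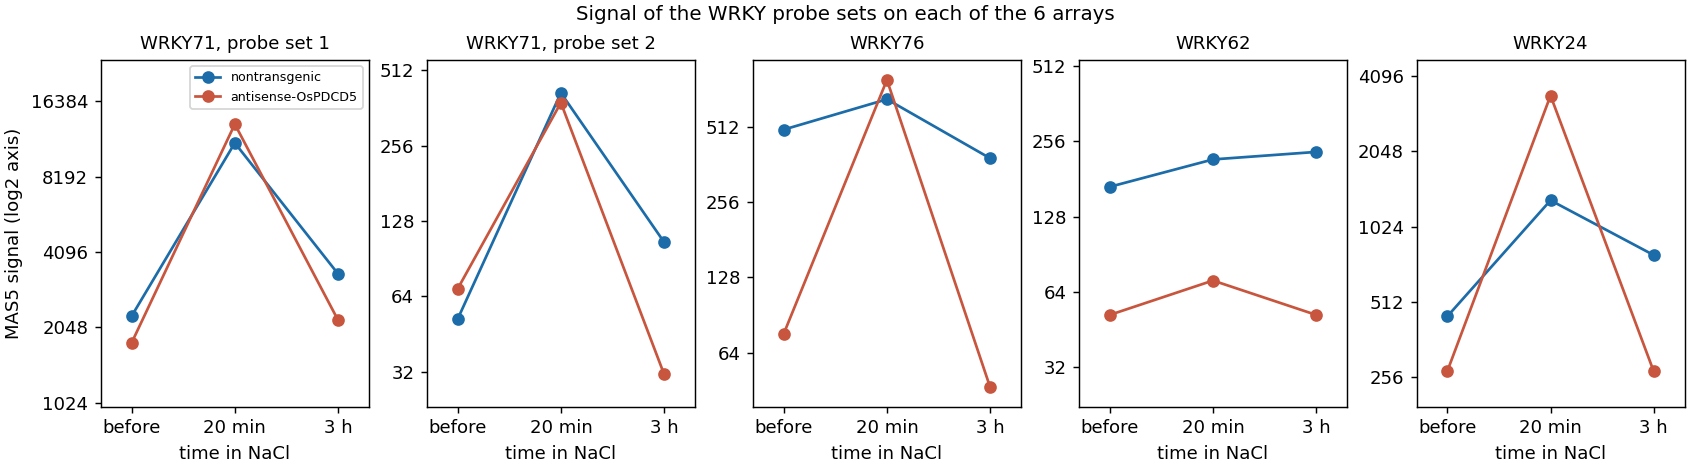
MAS5 signal (log2 axis, arbitrary units, the same fold span in each panel) of the 5 probe sets against the time in NaCl, 1 array per point, in nontransgenic (blue) and antisense-OsPDCD5 (red) leaves. The lines of WRKY71 and WRKY24 peak at 20 min in both genotypes. That of WRKY76 peaks steeply in antisense leaves (76.3, 786 and 46.7) and is only slightly higher at 20 min in nontransgenic leaves (498, 658 and 383). WRKY62 is lower in antisense leaves at all 3 stages (51.8 to 71.0 against 168 to 232).

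The comparison of 20 min with before asks which transcripts changed soon after entry into NaCl. WRKY71 was the member that rose past the threshold, by 2.59 ± 0.21 (log2 change ± SE, first probe set, adjusted p = 0.00937). The second probe set gave 2.45 ± 0.42 (adjusted p = 0.0670), WRKY24 2.54 ± 0.60 (adjusted p = 0.142), WRKY76 1.76 ± 0.67 (adjusted p = 0.374) and WRKY62 0.35 ± 0.27 (adjusted p = 0.678). Thus 1 of 5 member probe sets was called higher, against 0.789% of the 28629 probe sets tested, and the median of the 5 was 2.45, against 0.01 for all tested. The members were chosen with earlier results of these data known, so this and later counts of members against all tested describe them and are no test. Log2 changes were computed after 16 was added to the signal, which damps differences near background, with limma on an additive model of genotype and stage. A change past an adjusted p of 0.05 is termed called. There were no replicate arrays, so each error measures how far the arrays departed from additivity, not how far replicate samples spread. The WRKY71 call was lost without the antisense array from before treatment (2.50, adjusted p = 0.0742), where 27 of 28629 probe sets were called at all. It was lost too without limma's variance trend (2.59, adjusted p = 0.155), where 0 of 28629 were called and 3103 had an unadjusted p under 0.05.

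In single pairs of arrays, 3 of 5 member probe sets were at least 2-fold higher at 20 min in nontransgenic leaves, against 4.92% of all tested, and 4 of 5 in antisense leaves, against 4.19%. All 5, which include 2 probe sets of WRKY71, were above 0 in each genotype. The median of all tested was 0.02 in nontransgenic and -0.01 in antisense leaves. WRKY62, at 0.33 and 0.36, had 23.7% and 19.1% of tested probe sets at or above it. In nontransgenic leaves the first WRKY71 probe set (2.29) had 0.388% of tested probe sets at or above it, WRKY24 (1.51) had 1.69% and WRKY76 (0.39) had 20.7%. In antisense leaves WRKY24 (3.58) had 0.133% at or above it, WRKY76 (3.12) 0.213% and WRKY71 (2.89) 0.245%. The 3 genes thus lay near the top of the antisense changes, while in nontransgenic leaves WRKY76 lay within the bulk of all probe sets.

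The log2 change to 20 min was larger in antisense than in nontransgenic leaves by 2.73 for WRKY76, 2.07 for WRKY24 and 0.60 for the first WRKY71 probe set, and differed by 0.03 for WRKY62. With the second WRKY71 probe set the difference was -0.44, so the 2 probe sets of this gene disagreed in its direction. The median size of this difference over all tested probe sets was 0.29, and 0.248% of them had one as large as WRKY76 and 1.03% one as large as WRKY24. These differences use all residual degrees of freedom of the design and were not tested. Without the nontransgenic 20 min array, where the change rests on the antisense peak, WRKY76 and WRKY24 were called higher (3.17 and 3.78, adjusted p = 0.00587 and 0.00233). Without the antisense 20 min array the change was 0.34 for WRKY76 and 1.31 for WRKY24, with no call. WRKY24 and the second WRKY71 probe set were also called higher without either 3 h array (adjusted p from 0.0101 to 0.0397).

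The comparison of 3 h with 20 min asks whether early changes lasted. WRKY71 fell on both probe sets, by 2.16 ± 0.21 on the first (adjusted p = 0.00438) and by 2.45 ± 0.42 on the second (adjusted p = 0.0205). WRKY76 stood at -2.22 ± 0.67 (adjusted p = 0.0965), WRKY24 at -2.15 ± 0.60 (adjusted p = 0.0799) and WRKY62 at -0.13 ± 0.27 (adjusted p = 0.815). With 2 of 5 called lower the background was 4.23% of all tested. The second WRKY71 probe set lost its call without the antisense 20 min array (adjusted p = 0.104), and both lost it without the variance trend (adjusted p = 0.0563 and 0.0876), where 100 of 28629 were called, against 2483 with it. WRKY76 and WRKY24 were called lower without the nontransgenic 20 min array (adjusted p = 0.00146 and 0.00152), and WRKY24 without the nontransgenic 3 h array (adjusted p = 0.0215).

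In pairs, 2 of 5 member probe sets, both of WRKY71, were at least 2-fold lower at 3 h than at 20 min in nontransgenic leaves, where 5.39% of all tested were. In antisense leaves 4 of 5 were, all but WRKY62, against 6.88%. The decrease of WRKY76 in antisense leaves (-3.68) was matched or passed by 0.119% of tested probe sets.

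Between 3 h and before, 0 of 5 member probe sets were called in limma, against 6.01% of all tested. At an unadjusted p under 0.05 in limma it was also 0 of 5, against 6327 of 28629 tested. The changes were 0.43 ± 0.21 and 0.00 ± 0.42 for the 2 WRKY71 probe sets, -0.46 ± 0.67 for WRKY76, 0.21 ± 0.27 for WRKY62 and 0.39 ± 0.60 for WRKY24. After 16 was added, none was at least 2-fold apart in either genotype (the second WRKY71 probe set stood at 0.84 and -0.84), where 9.97% of tested probe sets were in nontransgenic and 11.9% in antisense leaves. A miss of the threshold does not show that these levels were equal, and the SE of WRKY76 leaves room for changes of more than 2-fold either way. The 3 h and 20 min contrasts share the arrays from before treatment.

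**Figure D2:**
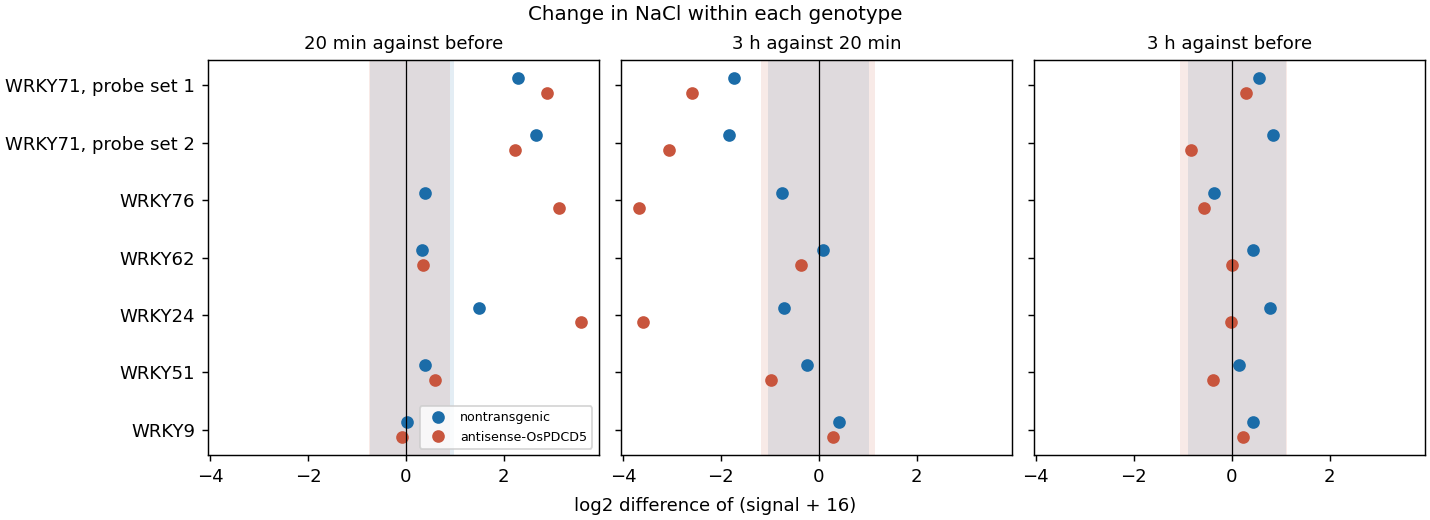
Log2 difference of (signal + 16) between stages within each genotype for the 7 WRKY probe sets, 1 pair of arrays per point (blue nontransgenic, red antisense-OsPDCD5); shaded bands hold the 5th to 95th percentile of all 28629 tested probe sets. At 20 min the red points of WRKY76 (3.12) and WRKY24 (3.58) lie far to the right of the blue ones (0.39 and 1.51), and at 3 h against before all points lie within the bands.

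The genotype comparison asks how antisense leaves differed over the 3 stages. WRKY62 was lower in antisense leaves, at -1.58 ± 0.22 (adjusted p = 0.00495), and lower at 3 of 3 stages (-1.44, -1.42 and -1.87). WRKY76 had a difference of similar size, -1.63 ± 0.54, that did not pass (adjusted p = 0.0834). Its single values were -2.48 before treatment, 0.25 at 20 min and -2.67 at 3 h. The remaining values were -0.24 ± 0.17 and -0.39 ± 0.34 for the 2 WRKY71 probe sets and -0.27 ± 0.49 for WRKY24, with adjusted p of 0.372, 0.477 and 0.745. Of 5 member probe sets, 1 was called lower, where 10.6% of all tested were. The WRKY62 call held under each other offset, filter, scaling and variance setting tried and without each array in turn, with adjusted p from 0.00400 to 0.0257.

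Without either 20 min array, WRKY76 was called lower in antisense leaves (-2.57, adjusted p = 4.72e-04 and 5.41e-04), and so was WRKY24 (-1.09, adjusted p = 0.0215 and 0.0255). Without either 3 h array the genotype value of WRKY24 was 0.34, the opposite direction, with no call. By stage, 2 of 5 member probe sets were at least 2-fold lower before treatment, WRKY76 and WRKY62, against 8.12% of all tested. At 20 min WRKY62 alone was, against 7.78%, and WRKY24 was at least 2-fold higher (1.38), as were 5.99% of all tested. At 3 h 4 of 5 were, against 8.05%, with WRKY76 at -2.67, WRKY62 at -1.87, WRKY24 at -1.49, the second WRKY71 probe set at -1.36 and the first at -0.61. The 3 stages are stages of the same 2 sets of seedlings, not replicates of genotype, and any other lasting difference between the sets cannot be told apart from the transgene. Scaling to the spike-in controls moved the median genotype difference of all tested probe sets by less than 0.1 and that of WRKY62 to -1.66.

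**Figure D3:**
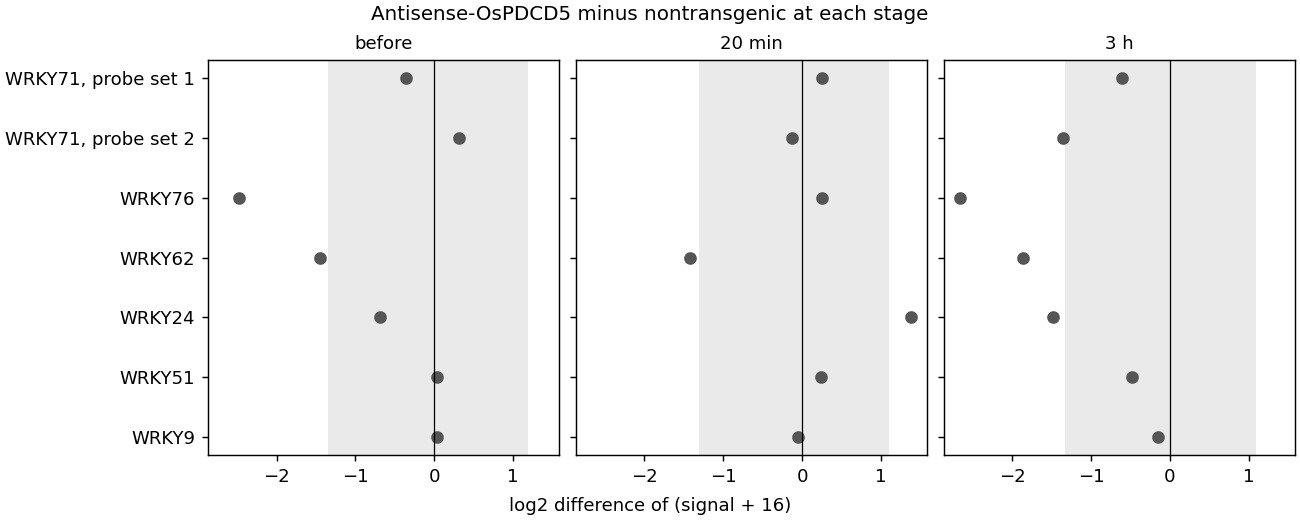
Log2 difference of (signal + 16), antisense-OsPDCD5 minus nontransgenic, for the 7 WRKY probe sets at each stage, 1 pair of arrays per point; the shaded band holds the 5th to 95th percentile of all tested probe sets. WRKY62 lies left of the band at all 3 stages, WRKY76 before treatment (-2.48) and at 3 h (-2.67) but not at 20 min (0.25), and WRKY24 moves from right of the band at 20 min (1.38) to left of it at 3 h (-1.49).

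The order of the 6 arrays can be set against the residual SD of the fit, as moderated by limma, which was 0.21 and 0.42 for the WRKY71 probe sets, 0.67 for WRKY76, 0.27 for WRKY62 and 0.60 for WRKY24 on the log2 scale. Before moderation it was 0.31, 0.61, 1.16, 0.18 and 1.05. This SD measures departure from additivity, so a gap wider than it does not show that 2 arrays differ beyond the spread of replicates. For WRKY76 the single gap between neighbouring arrays that was wider than this was the one of 2.11 between nontransgenic 3 h and antisense before treatment. It parted the 3 nontransgenic arrays and the antisense 20 min array from the 2 low antisense arrays. For WRKY62 the widest gap, 1.08, lay between the lowest nontransgenic and the highest antisense array. Genotype differences were common, with 20.6% of all tested probe sets called in either direction. For WRKY24 the antisense arrays before treatment and at 3 h were nearly equal (gap 0.00), and each other neighbour differed by 0.69 or more. Of these gaps only that of 1.38 below the antisense 20 min array was wider than the SD before moderation. For the first WRKY71 probe set, neighbours within the moderated SD were nontransgenic before treatment and antisense 3 h (gap 0.05).

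WRKY51 and WRKY9 varied little by comparison. WRKY51, the aleurone partner of WRKY71, had signals of 1109, 1454 and 1225 in nontransgenic and 1138, 1717 and 871 in antisense leaves. Its change at 20 min was 0.49 ± 0.20 (adjusted p = 0.403), with the 20 min array on top in both genotypes. It was called lower at 3 h than at 20 min only when the nontransgenic 3 h array was left out (-0.92, adjusted p = 0.0253, against -0.61 and 0.115). WRKY9 had signals between 971 and 1341, with no call in any contrast. Over the 6 WRKY genes, 1 was called at 20 min (median 1.12), 0 at 3 h against before (median 0.27), 1 at 3 h against 20 min (median -1.38) and 1 for genotype (median -0.25). Of all tested probe sets, 0.947%, 6.01%, 8.67% and 20.6% were called in either direction in these contrasts. The genotype count of 1 in 6 thus lay near the share of all tested.

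To place the profiles, the 2076 named genes past the filter without a WRKY name were ranked by likeness, measured as the root mean square difference between log2 signals (plus 16), each centred on its mean over the 6 arrays. Closest to WRKY71 were AOS (LOC4334233), an allene oxide synthase gene of jasmonate synthesis, at 0.21, the calcium-dependent kinase gene CDPK1 (LOC4328155) at 0.28 and the jasmonate repressor gene JAZ12 at 0.36. Closest to WRKY24 were BHLH148, a basic helix-loop-helix factor gene, at 0.22, CDPK1 at 0.41 and the same AOS gene at 0.47. WRKY71 and WRKY24 differed from each other by 0.43. Closest to WRKY76 were 4CL5, a 4-coumarate CoA ligase gene of the phenylpropanoid pathway, at 0.28, another AOS gene (LOC4332121) at 0.40 and JAZ9 at 0.58.

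The 4CL5 signal, like that of WRKY76, was lowest in antisense leaves before treatment and at 3 h, with 2024, 3102 and 2429 in nontransgenic and 372, 2737 and 330.4 in antisense leaves. Closest to WRKY62 were DAHPS1, for the first step of the shikimate pathway, at 0.15, the cysteine-rich receptor-like kinase gene CRK10 at 0.17 and the heat shock factor gene HSF10 at 0.19. DAHPS1 signals were 796, 718 and 900.3 in nontransgenic and 223, 287 and 252 in antisense leaves. WRKY62 lay 1.06 from WRKY76, 1.22 from WRKY71 and 1.30 from WRKY24, farther than each of those 3 from one another (0.43 to 0.95). These distances describe 6 arrays and carry no test.

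**Figure D4:**
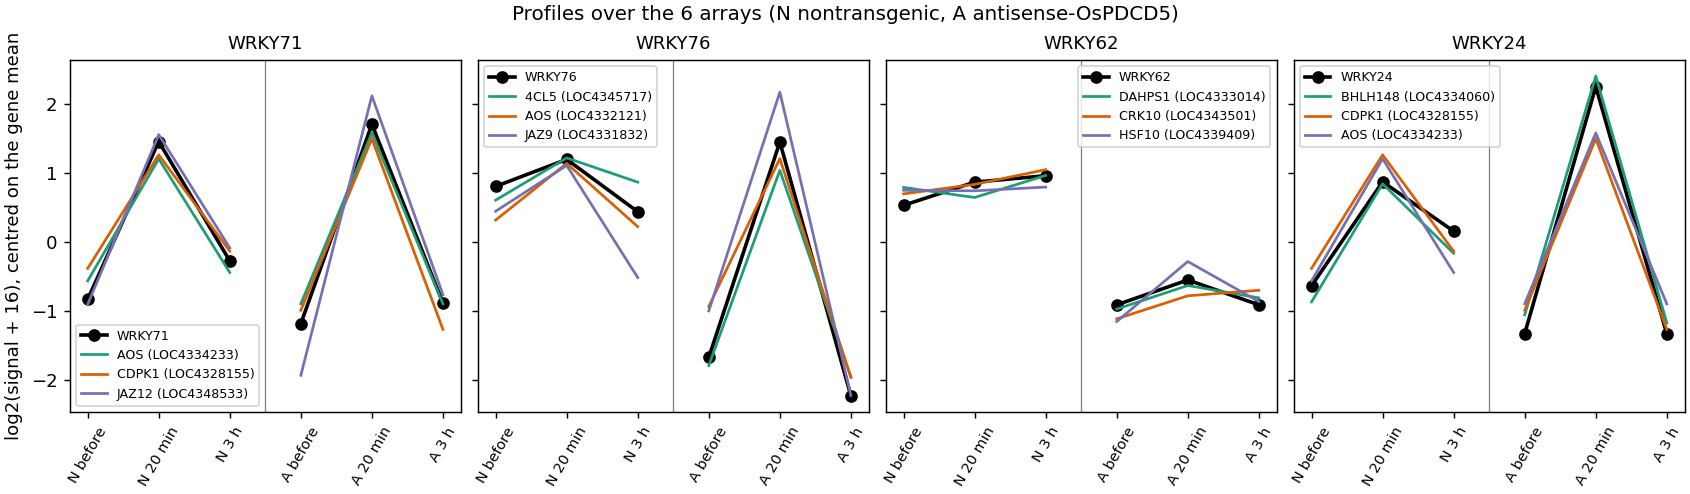
Log2(signal + 16) centred on each gene's mean, over the 3 nontransgenic (N) and 3 antisense-OsPDCD5 (A) arrays, for each WRKY gene (black, first probe set) and the 3 named genes of most similar profile. WRKY71 and WRKY24 share the 20 min peak with AOS and CDPK1, WRKY76 is low together with 4CL5 in antisense leaves before treatment and at 3 h, and WRKY62 is low together with DAHPS1, CRK10 and HSF10 on all antisense arrays.

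WRKY76 and WRKY62 are known in rice as repressors of some diterpenoid phytoalexin and pathogenesis-related genes, and of a list of such genes 16 were on the array with 1 gene and 14 passed the filter. In antisense leaves 7 of 14 were lower (background 10.6%) and 1, the cyclase gene KSL7, was higher (3.88, adjusted p = 0.00377, background 9.94%, named after its value was seen), with a median of -1.81 against 0.00 for all tested. The list, too, was chosen with earlier results of these data known, so its counts describe it and are no test. The largest called differences were those of the oxidase genes CYP76M7 (-5.29, adjusted p = 5.46e-04) and CYP71Z7 (-3.97, adjusted p = 0.0148) and of PBZ1, a pathogenesis-related gene (-4.05, adjusted p = 0.00984). The genotype medians were -1.10 before treatment, -0.66 at 20 min and -3.60 at 3 h. At 3 h 11 of 14 were at least 2-fold lower, where 8.05% of all tested were. In salt 0 of 14 were called in any of the 3 stage contrasts, where 0.947% (20 min against before), 6.01% (3 h against before) and 8.67% (3 h against 20 min) of all tested were called in either direction. In nontransgenic leaves their median change was -1.72 at 20 min and 0.23 at 3 h, and in antisense leaves -0.57 and -0.93. From 20 min to 3 h it was 2.32 in nontransgenic and -0.62 in antisense leaves, against -0.02 for all tested in each. The additive fit takes 1 change for both genotypes, so the lack of calls does not show that these genes were unchanged in salt. WRKY76 and WRKY62 were thus low in the same antisense leaves at 3 h in which most of these genes were low, and whether the 2 are linked was not tested.

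In the aleurone list of gibberellin and abscisic acid response genes, 6 of 10 passed the filter, and the 4 others included the amylase genes AMY1A, AMY3D and AMY3E. Against 20 min, 3 of the 6 were higher at 3 h (background 4.45%), namely RAB21, a dehydrin gene, at 2.49 (adjusted p = 0.00729), LEA3, of the late embryogenesis abundant class, at 2.15 (adjusted p = 0.0285) and TRAB1, a factor of abscisic acid signalling, at 0.57 (adjusted p = 0.0370). WRKY71 fell over the same interval, and whether the fall and these rises are linked was not tested. Against before treatment 1 of 6, RAB21, was higher at 3 h (1.56, adjusted p = 0.0356, background 3.44%), and 0 of 6 were called for genotype, against 20.6% of all tested in either direction. In the salicylic acid list 1 of 4 genes was called, NH1, a rice homologue of the receptor gene NPR1. It was lower in antisense leaves at -0.41 (adjusted p = 0.0415), where 10.6% of all tested were lower. In the 3 stage contrasts 0 of 4 were called, against 0.947% (20 min against before), 6.01% (3 h against before) and 8.67% (3 h against 20 min) of all tested. At such shares a count of 0 of 4 does not show that these genes were unchanged in salt.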

How the data were processed

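Biotin-labelled RNA of each leaf sample, amplified from the 3′ end per the labels' protocols, was read on 1 Affymetrix rice array. The deposited values are log2 signals per probe set, and the submitters' processing notes name MAS5 as the authors' tool. Its version is not given in the sources used here, and detection calls were not used. Tested on the values, each array had a trimmed mean signal of 500.1 (2% off each end). Of 57258 rice probe sets, 22436 had 1 gene, 95 several and 34727 none in the platform annotation; the genes of all 22436 (17905 genes) were found in the RefSeq gene table, which gave names. Signals were made linear, 16 was added and log2 taken. Probe sets with a mean under the median (5.53) did not enter the tests, leaving 28629. Genotype and stage entered as additive terms in one fit over these probe sets with limma 3.58.1 (R 4.3.3; lmFit, eBayes with trend), with Benjamini-Hochberg adjustment and a threshold of 0.05. It left 2 residual degrees of freedom, and the number of arrays limits the precision. The fit was tested on simulated data. For lists, the probe set of highest mean stood for a gene. An actin, a 14-3-3 and a response regulator gene shared a synonym with a listed gene and were left out. Named were all member probe sets, WRKY51 and WRKY9, up to 3 called genes per list and contrast, and the 3 most similar genes per member. WRKY28, WRKY45 and WRKY53 are not analysed here. The members and lists were chosen with earlier results of these data known. Alternatives were offsets of 1 and 64, no filter, quantile, 75th percentile and spike-in scaling (27 hybridisation control probe sets), no variance trend, the mean over a gene's probe sets and leaving out each array.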

Additional observations from a re-analysis of the deposited data

Results flagged for a closer look

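Results are given here where the arrays of the genotypes, or the stages, moved in opposite directions by at least 0.1 on the log2 scale. With 1 array per group the difference was not tested in any of them. The antisense minus nontransgenic value of WRKY76 turned from -2.48 before treatment to 0.25 at 20 min, a shift of 2.73, and then by -2.92 to -2.67 at 3 h. That of WRKY24 turned from -0.69 to 1.38, a shift of 2.07, and then by -2.87 to -1.49. For the first WRKY71 probe set it went from -0.35 to 0.25, a shift of 0.60, and by -0.86 to -0.61. For the second it went from 0.32 before treatment to -0.13 at 20 min, a shift of -0.44, and to -1.36 at 3 h, a shift of -1.68. The last is also the difference between a change of 0.84 in nontransgenic and of -0.84 in antisense leaves from before to 3 h, where the antisense signal of 31.3 was close to the offset of 16.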

How the results depend on the processing

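Of 364 repeats of a log2 change for a single WRKY probe set, 344 kept their side of the threshold, 15 gained a call and 5 lost one, and no called change turned its direction. With an offset of 64, 2 of 5 member probe sets were called at 20 min instead of 1, where 299 of 28629 tested were called instead of 271. Without the variance trend 0 were called at 20 min and 0 at 3 h against 20 min in limma, and over the 6 WRKY genes both counts were 0 as well. At an unadjusted p under 0.05 in that fit the member counts were 3 and 4 of 5, against 3103 and 6301 of 28629 tested. Of all 28629 tested probe sets 0 and 100 were called there, against 271 and 2483 with the trend. Leaving out 1 array at a time changed the number of calls among the members in each contrast but 3 h against before. It also changed the number among all tested probe sets, so these counts are not read as a result about the members. Over the 14 settings of the fit, the 20 min change of the first WRKY71 probe set lay between 2.22 and 2.95. The genotype difference of WRKY62 lay between -1.81 and -1.14. The 20 min change had a wider range for WRKY76 (0.34 to 3.17) and WRKY24 (1.31 to 3.78). A fit without 1 array leaves that stage with a lone array, which is assumed to vary like the others, and all calls rest on few residual degrees of freedom. No paired analysis was possible because the labels give no replicate numbers; the additive model itself compares stages within genotype and genotypes within stage.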

Other observations

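Genes of chitin perception and MAP kinase signalling act upstream of WRKY factors in rice immunity, and 12 of 12 on the array passed the filter. At 20 min 0 of 12 were called, where 271 of 28629 tested probe sets were, with a median of 0.23. RBOHB, an NADPH oxidase gene, was higher at 3 h than at 20 min (1.28, adjusted p = 0.0353; 1 of 12, background 4.45%), and MPK7 was lower (-1.42, adjusted p = 0.0271; 1 of 12, background 4.23%). RBOHB was also higher at 3 h than before treatment (1.59, adjusted p = 0.0241, background 3.44%) and the chitin receptor gene CEBIP lower (-1.26, adjusted p = 0.0353), as were 738 of 28629 tested. The kinase gene BIMK1, also known as MPK5, was picked after its values were seen. Its signals of 1159, 1965 and 1357 in nontransgenic and 482, 2292 and 491 in antisense leaves were, like those of WRKY76, lowest in antisense leaves before treatment and at 3 h, and it was not called in any contrast (adjusted p from 0.0803 to 0.890).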
